A study of Mus musculus with 31 samples.

Results

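The 10 genes described here carry out or control de novo lipogenesis, the making of fatty acids from small carbon units, in mouse liver and skeletal muscle. They are Srebf1, Acly, Acaca, Acacb, Fasn, Elovl6, Scd1, Me1, Thrsp and Pnpla3. They were picked by name for their place in this pathway, with earlier results of these data known. All 10 were found, among 35275 gene identifiers in the counts of an insulin experiment and 54532 in the counts of a knock-in experiment.

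De novo lipogenesis turns cytosolic citrate into acetyl-CoA, acetyl-CoA into malonyl-CoA, and malonyl-CoA into palmitate, which is then elongated, desaturated and built into triglyceride. In liver the pathway is known for its response to feeding: insulin acts on it mainly through SREBP-1c, a product of Srebf1, and glucose through ChREBP, the product of Mlxipl. ERRα, the orphan nuclear receptor encoded by Esrra, binds and controls many genes of energy metabolism in both tissues.

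RNA was sequenced from 31 samples in 8 groups, all from C57BL/6N mice. In the insulin experiment, WT mice and mice with a whole-body null of ERRα (ERRα-/-) were fasted for 12 h. They then received saline or insulin (1 unit per kg) by intraperitoneal injection, and livers were taken 4 h later. This gave 4 WT livers after saline, 4 WT livers after insulin, 4 ERRα-/- livers after saline and 3 ERRα-/- livers after insulin, which carry the replicate numbers 1, 2 and 4. In the knock-in experiment there were 4 samples each of liver and of muscle (gastrocnemius and soleus) from ERRα3SA mice, whose CRISPR-made allele puts alanine at phosphorylated serines of ERRα, and 4 of each from WT littermates. Whether both tissues came from the same mice is not given. The mice were males of 2 to 3 months with normal diet freely available. No fast is described for the knock-in experiment, and when each of its mice last ate is not given. Total counts per library ran from 35871419 to 48317108 in the 15 livers of the insulin experiment, from 20481405 to 33412022 in the 8 livers of the knock-in experiment and from 22241960 to 28835765 in the 8 muscles.

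Levels are given as CPM, counts scaled to a common library size, within each of those 3 sets separately. As a check of the labels, Esrra was at 32.3, 51.3, 42.7 and 40.5 CPM in WT livers after saline and at 53.7, 96.5, 56.1 and 59.0 CPM after insulin. In ERRα-/- livers it was at 1.63, 0.703, 1.15 and 1.04 CPM after saline and at 0.833, 0.576 and 0.298 CPM after insulin. Every ERRα-/- liver thus lay far below every WT liver of that experiment. In the knock-in experiment Esrra was at 26.2, 25.7, 26.8 and 28.0 CPM in WT livers and at 28.0, 24.1, 20.02 and 18.4 CPM in ERRα3SA livers. In muscle it was at 94.2, 86.1, 69.7 and 81.6 CPM in WT mice and at 25.8, 139.6, 134 and 103 CPM in ERRα3SA mice. The knock-in groups overlapped in both tissues, and counts per gene cannot show the changed serines. The 7 hepatocyte markers summed to between 63712 and 112809 CPM in every liver and to at most 19.4 CPM in every muscle. The 7 muscle fibre markers summed to at least 91894 CPM in every muscle.

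Several libraries stood apart from their groups. ERRα3SA muscle replicate 1 had 19.3% of its counts in mitochondrial genes, where the other 7 muscles had 9.15% to 10.8%, and it held the lowest Esrra value of the muscles. Its muscle fibre markers summed to 209138 CPM, with 129251 CPM the highest sum among the other muscles. It held the lowest of the 8 values for 36.7% of 14081 genes and the highest for 32.0%. ERRα3SA muscle replicate 4 had 2880 CPM in 5 stellate cell and fibroblast markers, led by Col3a1 at 1566 CPM, where the other muscles had 1028 to 1568 CPM. It also had the highest sums of the muscles for 5 Kupffer cell and macrophage markers (42.0 CPM, others at most 9.91), 5 leukocyte markers (20.2 CPM, others at most 7.45) and 5 cholangiocyte markers (64.5 CPM, others at most 15.4). Spp1 made up 55.6 CPM of the last. ERRα3SA liver replicate 4 had a hepatocyte marker sum of 63712 CPM, with Alb at 38111 CPM, where the other 7 livers of that experiment had 89067 to 105157 CPM. It held the lowest of the 8 values for 25.6% of 13339 genes and the highest for 25.9%. In ERRα3SA liver replicate 1 the 5 exocrine pancreas markers summed to 309 CPM, led by Pnlip at 121 CPM, and in the other 7 livers of that experiment to at most 61.9 CPM.

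In the insulin experiment 2 WT livers after saline carried RNA of exocrine pancreas genes. The 5 pancreas markers summed to 573 CPM in replicate 1 and to 865 CPM in replicate 4, led by Pnlip at 238 and 343 CPM, and to at most 138 CPM in the other livers of that experiment. WT insulin replicate 3 had 112 CPM of muscle fibre markers, and WT insulin replicate 2 had 1.88% of counts in mitochondrial genes, where the other 14 livers had 3.14% to 4.82%. In bulk tissue, fewer cells of a type and less RNA per cell cannot be told apart. ERRα-/- saline replicate 4 held the highest of the 15 values for 5 of the genes described here and for 7.17% of all genes.

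A gene was called when edgeR's quasi-likelihood test, fitted across all genes, gave an unadjusted p below 0.05 together with a difference of 1.2-fold or more. Adjusted p values are by the Benjamini-Hochberg method over all genes tested, and fold changes are on the log2 scale with their standard error (SE). Groups are said to stand apart when every sample of one lies beyond every sample of the other. Shares of all genes called are those of the edgeR fit to all samples of a comparison, unless another fit is named. They are not the background for counts by DESeq2 or under other settings.

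The roles and positions of the genes (GRCm38) are as follows. Srebf1 (ENSMUSG00000020538, chromosome 11, 60199089 to 60222581, minus strand) encodes the transcription factor SREBP-1, whose isoforms cannot be separated in counts per gene. Acly (ENSMUSG00000020917, chromosome 11, 100476353 to 100528000, minus strand) encodes ATP citrate lyase, which splits citrate to acetyl-CoA. Acaca (ENSMUSG00000020532, chromosome 11, 84129672 to 84401651, plus strand) and Acacb (ENSMUSG00000042010, chromosome 5, 114146535 to 114250761, plus strand) encode the acetyl-CoA carboxylases. The enzyme from Acaca makes malonyl-CoA in the cytosol for synthesis, and the one from Acacb makes it at mitochondria, where it limits fatty acid entry. Fasn (ENSMUSG00000025153, chromosome 11, 120805846 to 120824547, minus strand) encodes fatty acid synthase. Elovl6 (ENSMUSG00000041220, chromosome 3, 129532355 to 129638495, plus strand) encodes the elongase of palmitate, and Scd1 (ENSMUSG00000037071, chromosome 19, 44394455 to 44407879, minus strand) the main liver desaturase. Me1 (ENSMUSG00000032418, chromosome 9, 86581371 to 86695953, minus strand) encodes cytosolic malic enzyme, a source of NADPH. Thrsp (ENSMUSG00000035686, chromosome 7, 97412938 to 97417730, minus strand) encodes Spot 14, a nuclear and cytosolic protein induced by thyroid hormone and carbohydrate. Pnpla3 (ENSMUSG00000041653, chromosome 15, 84167837 to 84187236, plus strand) encodes a lipid droplet protein whose gene is a target of SREBP-1c. Other genes cover 6.78% of the exon bases of Pnpla3, 3.11% of Srebf1, 0.78% of Me1 and 0.529% of Elovl6. The strand setting of the counts is not given, so reads of overlapping or antisense genes cannot be told apart from theirs.

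Compared per length of exon sequence, Scd1 was by far the most abundant of the 10 in fasted WT liver after saline, at 784 CPM per kb (SD 255, n = 4). Me1 (29.6, SD 8.91), Acly (21.9, SD 2.82), Fasn (14.0, SD 3.13), Acacb (11.6, SD 3.98) and Elovl6 (8.63, SD 0.762) followed in CPM per kb. Srebf1 (8.06, SD 3.19), Thrsp (5.98, SD 2.37), Acaca (4.74, SD 0.582) and Pnpla3 (0.125, SD 0.119) were the lowest in CPM per kb. From Fasn down to Acaca the ranges of mean ± 1 SD of neighbours overlapped, as did those of Me1 and Acly. They did not overlap between Scd1 and Me1, between Acly and Fasn or between Acaca and Pnpla3. In WT littermate liver the order in CPM per kb was Scd1 (3334, SD 769), Acly (144, SD 19.6), Thrsp (132, SD 36.3), Me1 (90.5, SD 24.0) and Fasn (88.2, SD 12.7). Srebf1 (67.5, SD 7.44), Elovl6 (23.0, SD 5.13), Acacb (16.8, SD 2.33), Acaca (7.21, SD 0.862) and Pnpla3 (1.66, SD 1.08) came below them in CPM per kb. There the ranges of mean ± 1 SD overlapped for the neighbours from Acly to Fasn and for Elovl6 and Acacb. In WT littermate muscle Me1 (104, SD 3.85) and Scd1 (88.9, SD 18.0), whose ranges of mean ± 1 SD overlapped, led in CPM per kb, and Elovl6 was lowest at 0.805 (SD 0.106).

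The fasted livers and the WT littermate livers come from different experiments that were scaled separately, so their levels are only described. Mean Srebf1 was 45.4 CPM in WT livers after saline and 380.2 CPM in WT littermate livers. For Fasn the means were 153 and 965 CPM, for Thrsp 13.1 and 289 CPM, and for Scd1 3836 and 16310 CPM. The plot of mean levels by group shows that each of the 10 genes was higher in WT littermate liver than in either fasted WT group. The 10 genes together took 0.459% of all counts in WT livers after saline (SD 0.120, n = 4) and 1.95% in WT littermate livers (SD 0.416, n = 4). Scd1 made up 79.4% to 87.7% of that sum in the first group and 82.0% to 85.1% in the second.

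Promoter windows are shown because the genes share a regulator whose sequence elements are known, and because all 10 were lowest in the same ERRα3SA liver and 9 of them, all but Srebf1, highest in another. RefSeq starts on GRCm38.p6 gave 12 windows of 250 bases for 9 of the 10 genes, all but Scd1. Of these 4 are printed, those of Srebf1, Fasn, Thrsp and Acly, which are among the genes called below. Acaca, Acacb and Elovl6 are also called below, and their windows are not printed. They are the windows chr11:60210472-60210721, chr11:120824548-120824797, chr7:97417551-97417800 and chr11:100528001-100528250, all of genes on the minus strand, written 5′ to 3′ along the gene. Capitals mark matches on either strand to CCAAT, to TCACCC or to CATGTG.
Srebf1: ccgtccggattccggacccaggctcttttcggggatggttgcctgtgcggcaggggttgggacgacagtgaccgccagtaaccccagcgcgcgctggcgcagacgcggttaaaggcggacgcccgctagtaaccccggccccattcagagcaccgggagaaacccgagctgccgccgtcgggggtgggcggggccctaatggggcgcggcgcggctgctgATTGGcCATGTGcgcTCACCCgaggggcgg
Fasn: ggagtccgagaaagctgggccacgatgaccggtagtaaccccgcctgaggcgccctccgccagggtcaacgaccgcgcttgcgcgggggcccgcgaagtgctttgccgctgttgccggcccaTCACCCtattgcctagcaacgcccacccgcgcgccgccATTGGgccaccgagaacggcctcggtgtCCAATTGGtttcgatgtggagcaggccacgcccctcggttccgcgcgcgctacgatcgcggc
Thrsp: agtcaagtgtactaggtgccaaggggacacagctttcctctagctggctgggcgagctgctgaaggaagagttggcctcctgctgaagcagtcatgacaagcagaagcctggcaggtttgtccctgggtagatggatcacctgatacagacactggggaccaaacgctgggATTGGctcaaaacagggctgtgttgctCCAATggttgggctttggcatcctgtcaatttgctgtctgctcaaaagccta
Acly: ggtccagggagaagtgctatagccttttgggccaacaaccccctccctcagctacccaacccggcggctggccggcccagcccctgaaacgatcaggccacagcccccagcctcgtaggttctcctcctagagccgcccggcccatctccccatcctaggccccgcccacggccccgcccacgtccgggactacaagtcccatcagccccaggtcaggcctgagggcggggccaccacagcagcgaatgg
Srebf1 has 3 windows, and the printed one, which lies inside the gene as annotated above, is the only one of them with all 3 motifs. It held 1 match to each, the nearest ending 10 bases before the start. The window before the annotated gene (chr11:60222582-60222831) held only CCAAT, and the third (chr11:60220628-60220877) held no match. The window of Fasn held 3 matches to CCAAT, of which 2 overlap, and 1 to TCACCC. The window of Thrsp held 2 matches to CCAAT, and that of Acly held no match. The windows of Acaca (chr11:84195188-84195437) and Acacb (chr5:114165268-114165517) also lie inside their genes as annotated above. So does the window chr9:86687278-86687527 of Me1. Over the 12 windows CCAAT was found in 6 genes (Srebf1, Fasn, Acacb, Me1, Thrsp and Pnpla3), TCACCC in 4 (Srebf1, Fasn, Me1 and Pnpla3) and CATGTG in 3 (Srebf1, Acacb and Me1). By window these are 7, 4 and 3 of the 12. Among 32851 RefSeq windows of the same length, 33.8% held CCAAT, 13.8% TCACCC and 12.3% CATGTG. None of the 12 windows held TCACNCCAC (1.05% of all windows), CACGTG (6.02%) or AAGGTCA (4.08%). TCACCC and CATGTG were added to the search after its first result was seen, and TCACNCCAC begins with TCACCC where N is C.

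Turning to the response of fasted liver to insulin, the question was how each gene changed 4 h after the injection in WT and in ERRα-/- mice. A control list of insulin-responsive liver genes, chosen like the other lists from general knowledge with earlier results known, was read first. In WT liver 4 of its genes were called higher, Igfbp1 by 2.35 (edgeR adjusted p 0.0225), Insig2 by 1.23 (edgeR adjusted p 0.0476), G6pc by 0.65 and Irs2 by 0.61 log2, and 1 was called lower, Pck1 at -0.45 log2. In ERRα-/- liver the same 4 were called higher, at 1.29 for Igfbp1, 0.97 for Insig2, 0.82 for G6pc and 0.95 log2 for Irs2 (edgeR adjusted p 0.0466), and 0 were called lower by edgeR. At this time after the injection, Igfbp1 and G6pc, genes that insulin is known to repress, were thus higher in the injected animals. Without WT insulin replicate 2 the rise of G6pc in WT liver was 0.39 log2, still called. The call of Igfbp1 in ERRα-/- liver was lost in 3 of the 7 fits that left out 1 liver, without saline replicate 4 (1.09), insulin replicate 2 (0.94) or insulin replicate 4 (1.32).

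**Figure D1:**
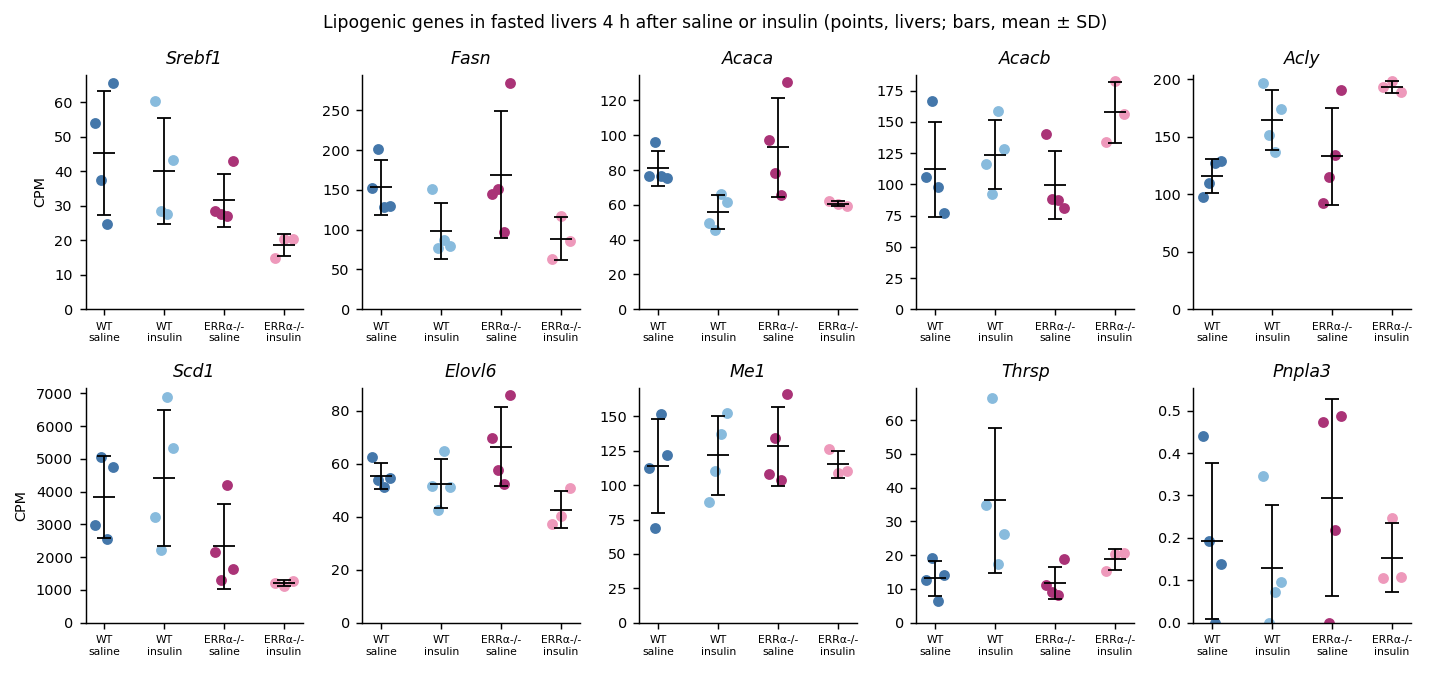
CPM of each gene (linear axes from 0) in the 15 fasted livers, points for livers and bars for mean and SD, by genotype and injection. The 3 ERRα-/- livers after insulin lie below every WT liver for Srebf1 (14.8 to 20.4 CPM) and Scd1 (1112 to 1277 CPM); for Pnpla3 the lower bar of WT livers after insulin is clipped at 0.

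Srebf1, the regulator, was at 53.9, 37.6, 24.6 and 65.4 CPM in WT livers after saline and at 60.4, 28.6, 27.6 and 43.2 CPM after insulin. Srebf1 in ERRα-/- livers was at 28.5, 27.6, 27.1 and 42.9 CPM after saline and at 14.8, 20.4 and 20.3 CPM after insulin. WT livers spread widely in both conditions and overlapped, whereas the 3 ERRα-/- livers after insulin lay below all the other 12 livers. Srebf1 fell with insulin in ERRα-/- liver by 0.77 log2 (SE 0.19, 1.71-fold lower, edgeR p 0.00174, adjusted p 0.0560). Between genotypes after insulin it was lower in ERRα-/- liver at -1.12 log2 (SE 0.27, 2.17-fold lower, edgeR p 0.00188, adjusted p 0.176). Both calls held in each fit that left out 1 liver. In WT liver the difference with insulin, -0.18 log2 (SE 0.31, edgeR p 0.565), missed the call and turned to 0.04 without WT saline replicate 4. Between genotypes after saline Srebf1 stood at -0.52 log2 (SE 0.26, edgeR p 0.0728), which was called without WT saline replicate 3 (-0.73, p 0.00604), without ERRα-/- saline replicate 4 (-0.71, p 0.0262) and by DESeq2 (p 0.0333). It was -0.30 (p 0.266) without WT saline replicate 4. With the 2 WT livers that carried pancreas markers left out, a choice made after seeing the data, that value was 0.02 and the insulin effect in WT liver 0.36 log2 (p 0.312). The part of pancreas RNA in the Srebf1 values of those 2 livers, the highest 2 of the 4, was not tested. The insulin effect on Srebf1 differed between the genotypes by -0.59 log2 (SE 0.42, edgeR p 0.177), not called, and was called at -1.13 log2 (p 0.0133) without those 2 livers. With 1 liver left out it was called in 0 of 15 fits and ran from -0.82 to -0.32, nearest to 0 without WT insulin replicate 1 (p 0.424).

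Acly, which supplies cytosolic acetyl-CoA, was at 97.5, 109, 127 and 129 CPM in WT livers after saline and at 196, 151, 137 and 174 CPM after insulin. Acly in ERRα-/- livers was at 91.9, 115, 134 and 190.4 CPM after saline and at 193, 199 and 188 CPM after insulin. Each WT liver after insulin lay above each WT liver after saline. In ERRα-/- mice the groups overlapped through saline replicate 4, at 190.4 CPM. Acly rose with insulin by 0.51 log2 in WT liver (SE 0.14, 1.42-fold, edgeR p 0.00475, adjusted p 0.0927) and by 0.54 log2 in ERRα-/- liver (SE 0.20, edgeR p 0.0216, adjusted p 0.185). The second call was lost without ERRα-/- saline replicate 2 (0.48, p 0.0509) or insulin replicate 2 (0.52, p 0.0585). The difference between the genotypes' insulin effects was 0.03 log2 (SE 0.26, edgeR p 0.905). Between genotypes Acly was not called after saline (0.20, SE 0.20) or after insulin (0.22, SE 0.14), the latter passing without WT insulin replicate 1 (0.32, p 0.0445).

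Acaca, the cytosolic carboxylase, was at 76.3, 95.9, 76.6 and 75.3 CPM in WT livers after saline and at 49.7, 45.3, 66.2 and 61.6 CPM after insulin. Acaca in ERRα-/- livers was at 97.1, 78.3, 65.8 and 131 CPM after saline and at 62.0, 60.6 and 59.5 CPM after insulin. In both genotypes every liver after insulin lay below every liver after saline, so Acaca moved opposite to Acly. Acaca fell with insulin by 0.54 log2 in WT liver (SE 0.15, 1.45-fold lower, edgeR p 0.00369, adjusted p 0.0811). In ERRα-/- liver it fell by 0.62 log2 (SE 0.19, 1.53-fold lower, edgeR p 0.00939, adjusted p 0.122). Both calls held in each fit that left out 1 liver. Between genotypes Acaca was not called after saline (0.20, SE 0.19, edgeR p 0.313) or after insulin (0.11, SE 0.15, edgeR p 0.453).

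Acacb, the mitochondrial carboxylase, ranged from 77.3 to 166 CPM in WT livers after saline and from 92.0 to 159 CPM after insulin. In ERRα-/- livers it was at 141, 88.6, 87.4 and 81.4 CPM after saline and at 134, 182 and 156 CPM after insulin. Only saline replicate 1 of the ERRα-/- livers reached the range of the insulin group. Acacb rose with insulin in ERRα-/- liver by 0.66 log2 (SE 0.19, 1.58-fold, edgeR p 0.00560, adjusted p 0.0957) and kept this call in each fit that left out 1 liver. In WT liver it was not called, at 0.15 log2 (SE 0.23, edgeR p 0.541; 0.0015 to 0.40 with 1 liver left out), and the difference between the genotypes' effects, 0.52 log2 (SE 0.33, edgeR p 0.136), was not called either. That difference passed without ERRα-/- saline replicate 1 (0.73, p 0.0315) and without the 2 WT livers with pancreas markers (0.76, p 0.0432), and was 0.26 (p 0.379) without WT saline replicate 2. Between genotypes after insulin Acacb stood at 0.34 log2 (SE 0.19, edgeR p 0.0951), which was called without WT insulin replicate 3 (0.49, p 0.0173) and was 0.22 without ERRα-/- insulin replicate 2 (p 0.317).

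Fasn, which builds palmitate, was at 153, 202, 129 and 129 CPM in WT livers after saline and at 151, 76.7, 87.6 and 79.1 CPM after insulin. Fasn in ERRα-/- livers was at 145, 151, 97.2 and 284 CPM after saline and at 63.3, 117 and 86.0 CPM after insulin. Of the WT livers after insulin 3 lay below all 4 after saline and replicate 1 lay among them. The ERRα-/- groups overlapped through saline replicate 3 and insulin replicate 2. Fasn fell with insulin by 0.64 log2 in WT liver (SE 0.23, 1.55-fold lower, edgeR p 0.0181, adjusted p 0.181). This call was lost without WT saline replicate 2 (-0.47, p 0.0670), WT insulin replicate 2 (-0.53, p 0.0514) or WT insulin replicate 4 (-0.54, p 0.0538). Fasn in ERRα-/- liver fell by 0.93 log2 (SE 0.32, 1.91-fold lower, edgeR p 0.0148, adjusted p 0.155), a call lost without insulin replicate 1 (-0.74, p 0.0666). Without saline replicate 4, at 284 CPM, the fall was 0.57 log2 (p 0.0333), still called. Between genotypes Fasn was not called after saline (0.14, SE 0.28, edgeR p 0.613) or after insulin (-0.16, SE 0.27, edgeR p 0.562), and either value changed sign with 1 liver left out. The saline value was -0.22 without ERRα-/- saline replicate 4. The insulin value was 0.12 without WT insulin replicate 1 and 0.04 without ERRα-/- insulin replicate 1.

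Elovl6, the palmitate elongase, was at 62.5, 54.0, 51.0 and 54.5 CPM in WT livers after saline and at 51.5, 42.5, 64.7 and 51.0 CPM after insulin. Elovl6 in ERRα-/- livers was at 69.7, 57.5, 52.4 and 86.1 CPM after saline and at 37.1, 40.1 and 50.6 CPM after insulin. The WT groups overlapped, and the ERRα-/- livers after insulin lay below all 4 after saline. Elovl6 fell with insulin in ERRα-/- liver by 0.64 log2 (SE 0.18, 1.56-fold lower, edgeR p 0.00390, adjusted p 0.0809), in each fit that left out 1 liver as well. In WT liver the difference was -0.08 log2 (SE 0.14, edgeR p 0.573). The insulin effect differed between the genotypes by -0.56 log2 (SE 0.23, edgeR p 0.0293, adjusted p 0.543). That call was lost in 5 of the 15 fits that left out 1 liver, those without WT saline replicate 3 (p 0.0534), WT insulin replicate 3 (-0.44, p 0.0702), ERRα-/- saline replicate 4 (-0.41, p 0.0769) and ERRα-/- insulin replicates 1 (p 0.0838) and 2 (p 0.0651). Between genotypes Elovl6 was not called, at 0.26 log2 after saline (SE 0.15, p 0.111) and -0.31 log2 after insulin (SE 0.17, p 0.0939). It passed after saline without ERRα-/- saline replicate 3 (0.36, p 0.0307), and after insulin without WT insulin replicate 2 (-0.39, p 0.0305) or ERRα-/- insulin replicate 4 (-0.43, p 0.0462). Nearest to 0 these values were 0.11 (p 0.406), without ERRα-/- saline replicate 4, and -0.19 (p 0.266), without WT insulin replicate 3.

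Scd1, the desaturase, was at 2988, 5043, 2552 and 4759.9 CPM in WT livers after saline and at 3237, 2221, 6878 and 5324 CPM after insulin. Scd1 in ERRα-/- livers was at 2145, 1313, 4214 and 1626 CPM after saline and at 1218, 1112 and 1277 CPM after insulin. WT livers after insulin spread widely and overlapped those after saline, while the 3 ERRα-/- livers after insulin were close together and below all the other 12. Between genotypes after insulin Scd1 was lower in ERRα-/- liver at -1.88 log2 (SE 0.33, 3.69-fold lower, edgeR p 0.000175, adjusted p 0.119), the rank 19 of 13665 genes by p. That call held in each fit that left out 1 liver. With insulin Scd1 fell in ERRα-/- liver by 0.96 log2 (SE 0.34, 1.94-fold lower, edgeR p 0.0167, adjusted p 0.164), lost without insulin replicate 2 (-0.90, p 0.0582). Without saline replicate 3, at 4214 CPM, the fall was 0.50 log2 (p 0.0162), still called. In WT liver the difference with insulin was 0.20 log2 (SE 0.33, edgeR p 0.556) and turned to -0.09 without WT insulin replicate 3. After saline the difference between genotypes, -0.72 log2 (SE 0.35, edgeR p 0.0614), was not called. It passed without ERRα-/- saline replicate 3 (-1.18, p 0.00103) or WT saline replicate 3 (-0.88, p 0.0346).

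The insulin effect on Scd1 differed between the genotypes by -1.15 log2 (SE 0.53, edgeR p 0.0431, adjusted p 0.557). DESeq2 did not call it (p 0.0675), and it was lost in 9 of the 15 fits that left out 1 liver. Its value lay nearest to 0 without ERRα-/- saline replicate 3 (-0.70, p 0.141) and without WT insulin replicate 3 (-0.86, p 0.112). The other 7 were WT saline replicates 1 (p 0.0757) and 3 (p 0.0821), WT insulin replicate 4 (p 0.0758), ERRα-/- saline replicate 1 (p 0.0503) and ERRα-/- insulin replicates 1 (p 0.0665), 2 (p 0.0808) and 4 (p 0.0596). Without the 2 WT livers with pancreas markers it was -1.17 log2 (p 0.0750).

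Me1, the NADPH source, ranged from 69.1 to 152 CPM in WT livers after saline and from 87.4 to 152 CPM after insulin. In ERRα-/- livers it ranged from 104 to 166 CPM after saline and from 109 to 127 CPM after insulin. All 4 groups overlapped. Me1 was called in no comparison of the insulin experiment by edgeR or DESeq2, and its difference with insulin was 0.10 log2 in WT liver (SE 0.23, edgeR p 0.689) and -0.16 log2 in ERRα-/- liver (SE 0.16, edgeR p 0.353).

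Thrsp was at 12.7, 19.0, 6.42 and 14.2 CPM in WT livers after saline and at 34.9, 66.6, 17.4 and 26.2 CPM after insulin. Thrsp in ERRα-/- livers was at 11.2, 9.04, 8.23 and 18.7 CPM after saline and at 15.2, 20.4 and 20.8 CPM after insulin. Of the WT livers after insulin 3 lay above all 4 after saline, and replicate 3 lay below the highest of them. Thrsp rose with insulin in WT liver by 1.47 log2 (SE 0.40, 2.78-fold, edgeR p 0.00358, adjusted p 0.0799), and each fit that left out 1 liver called it too. The rise was 0.9996 log2 (p 0.0124) without WT insulin replicate 2, the library low in mitochondrial counts and highest in Thrsp (66.6 CPM). In ERRα-/- liver it rose by 0.67 log2 (SE 0.26, 1.59-fold, edgeR p 0.0254, adjusted p 0.202). The latter call was lost with the 4 groups fitted together (p 0.108), without ERRα-/- saline replicates 1 (p 0.05003), 2 (p 0.0635) or 3 (p 0.0556), and without insulin replicates 2 (p 0.0797) or 4 (p 0.0803). After insulin Thrsp was lower in ERRα-/- than in WT liver at -0.96 log2 (SE 0.38, 1.95-fold lower, edgeR p 0.0290, adjusted p 0.420), with overlapping groups. This call was lost with DESeq2 (p 0.0551), without WT insulin replicate 2 (-0.48, p 0.0741) and without ERRα-/- insulin replicates 1 (-0.83, p 0.101), 2 (p 0.0579) or 4 (p 0.0546). The difference between the genotypes' insulin effects, -0.80 log2 (SE 0.54, edgeR p 0.159), was not called, and was -0.33 (p 0.491) without WT insulin replicate 2 and -0.49 (p 0.372) without ERRα-/- saline replicate 4. Between genotypes after saline Thrsp stood at -0.15 log2 (SE 0.32, p 0.656).

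Pnpla3 had 0 to 22 counts per library in these 15 livers. It was too low to be tested in the pairwise comparisons, and the difference between the genotypes' insulin effects, -0.36 log2 (SE 1.82, edgeR p 0.847), was not resolved at these counts.

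Counted together, insulin in WT liver raised 2 of the 9 genes tested by the call rule (Thrsp and Acly), where 8.34% of 13463 genes were called higher. It lowered 2 (Fasn and Acaca), where 8.91% of genes were called lower. EdgeR passed 0 of the 9 at an adjusted p under 0.05, where 3.16% of genes passed, 4 of the 9 had an unadjusted p under 0.05, and DESeq2 called 4. The median of the 9 was 0.10 log2, against 0.004 for all genes.

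In ERRα-/- liver insulin raised 3 of the 9 (Acacb, Acly and Thrsp), with 8.05% of 13684 genes called higher, and lowered 5 (Srebf1, Fasn, Acaca, Scd1 and Elovl6), with 9.14% called lower. Of these genes edgeR passed 0 at an adjusted p under 0.05, against 2.91% of genes, 8 had an unadjusted p under 0.05, and DESeq2 called 8. The median was -0.62 log2, against -0.02 for all genes. ERRα-/- saline replicate 4 held the highest of the 15 values for Fasn, Acaca, Elovl6, Me1 and Pnpla3, and for 7.17% of all genes. The mean standardized level of the genes described here was 0.93 in that liver and at most 0.29 in the others. Without that liver Fasn stood at -0.57 log2, still called. The number called ranged from 5, without ERRα-/- insulin replicate 2, to 8 over the fits that left out 1 liver. In the fit with 5 called, 5.41% of genes were called higher and 6.85% lower. The pancreas markers differed as well, with 4 of 4 tested called lower after insulin in ERRα-/- liver (median -5.34 log2). Pnlip lay between 0 and 53.4 CPM in ERRα-/- livers after saline and between 0 and 1.43 CPM after insulin. The part of pancreas RNA in the values of the genes described here was not tested. A larger number called in one genotype than in the other is not a test of the difference, which the interaction below tests.

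Between genotypes after saline edgeR called 0 of the 9 higher (5.98% of 13481 genes) and 0 lower (5.3%), 0 had an unadjusted p under 0.05, and DESeq2 called 1, Srebf1. Of these genes edgeR passed 0 at an adjusted p under 0.05, against 0.0816% of genes. The median was 0.14 log2, against 0.004 for all genes. Over the fits that left out 1 liver 0 to 2 were called.

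After insulin ERRα-/- liver had 0 of the 9 called higher by edgeR (4.57% of 13665 genes) and 3 called lower (5.42%), namely Scd1, Srebf1 and Thrsp, all with an unadjusted p under 0.05. DESeq2 called 2. Of these genes edgeR passed 0 at an adjusted p under 0.05, against 0.0585% of genes. The median was -0.16 log2, against -0.02 for all genes. After insulin the hepatocyte markers summed to 104031 to 108756 CPM in ERRα-/- livers and to 83842 to 97205 CPM in WT livers. The leukocyte markers summed to 7.36 to 8.09 and to 5.88 to 6.93 CPM, and both sums stood apart. Of the endothelial markers Tek (13.3 to 16.0 and 10.3 to 11.9 CPM) and Cdh5 (23.7 to 28.0 and 13.9 to 23.6 CPM) did too. Pecam1, Kdr, Stab2 and the endothelial sum overlapped. Of the pancreas markers edgeR called 4 of 4 tested lower in ERRα-/- livers after insulin, with a median of -5.05 log2. Pnlip lay between 0 and 1.43 CPM in those livers and between 0 and 37.5 CPM in WT livers after insulin. The part of these markers in the values above was not tested. These genotype comparisons share their livers with the insulin comparisons, so none of them is independent of the others.

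For the difference of the insulin effects between the genotypes edgeR called 0 of 10 higher (4.04% of 14670 genes) and 2 lower (4.75%), Scd1 and Elovl6. Of these genes edgeR passed 0 at an adjusted p under 0.05, as for all genes (0%), 2 had an unadjusted p under 0.05, and DESeq2 called 1. The median was -0.33 log2, against -0.02 for all genes. The plot of fold changes by comparison puts these values side by side.

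**Figure D2:**
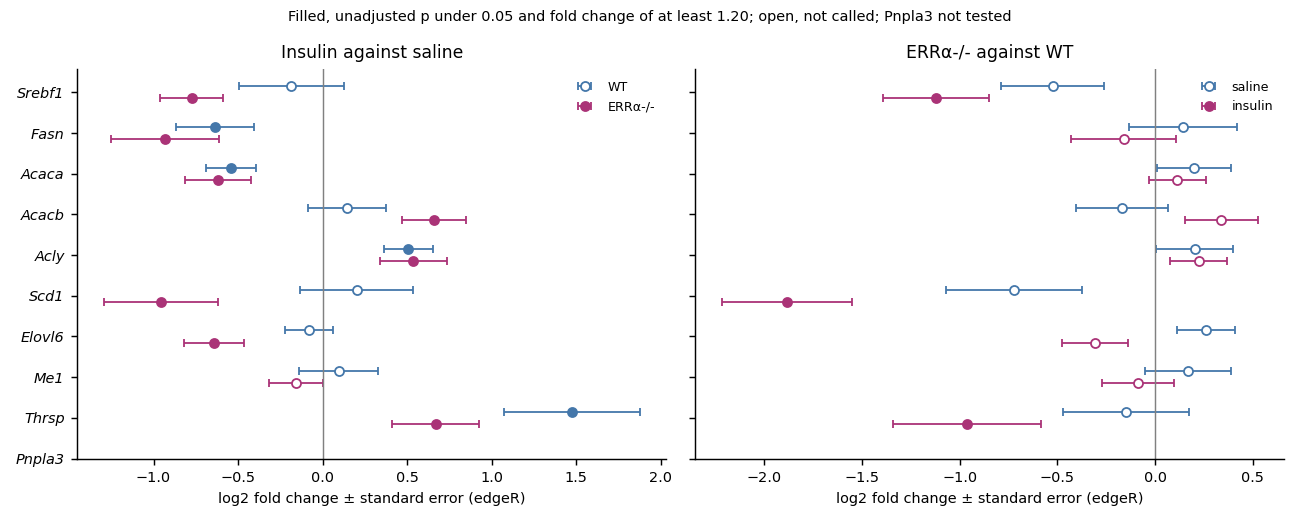
Log2 fold change with its SE for each gene in the comparisons, filled points called and open points not called by the rule above. Pnpla3 was not tested in the pairwise comparisons of the insulin experiment; the largest called value is that of Scd1 between genotypes after insulin, -1.88.

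The other genes of the pathway were read as 6 lists. Among 15 regulators that process SREBP or act beside it, insulin in WT liver raised 2, Insig2 (1.23 log2) and Usf1 (0.36), and lowered 2, Mlxipl (-0.81, edgeR adjusted p 0.0319) and Rxra (-0.43). Insulin in ERRα-/- liver raised 3, Insig2 (0.97), Mbtps2 (0.53) and Scap (0.39), and lowered 4, Pparg (-1.30, edgeR adjusted p 0.0268), Mlxipl (-0.46), Usf1 (-0.29) and Rxra (-0.28). Insig2 encodes a protein that holds SREBP in the endoplasmic reticulum, and Mlxipl encodes ChREBP. Other genes cover 28.4% of the exon bases of Mbtps2 and 13.2% of Scap. Between genotypes 1 regulator was called higher after saline, Pparg (0.71), and 3 lower after insulin, Insig1 (-0.66), Usf1 (-0.56) and Usf2 (-0.38). The insulin effect differed between genotypes for 2, Pparg (-0.93) and Usf1 (-0.65). When single livers were left out, the call of Usf1 was lost in 6 of 8 fits for insulin in WT liver (nearest to 0 without insulin replicate 2, 0.24) and in 5 of 7 in ERRα-/- liver (without saline replicate 4, -0.23), where that of Rxra was lost in 4 of 7. Between genotypes Pparg lost its call in 3 of 8 fits after saline, and after insulin Insig1 did in 2 of 7 and Usf2 in 4 of 7. Insig1 stood at -0.35 without WT insulin replicate 1, still called. For the difference of insulin effects Pparg lost its call in 9 of 15 fits.

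Of 10 genes that supply citrate, acetyl-CoA and NADPH, insulin in WT liver raised 1, Cs (0.35 log2), and lowered 2, Acss2 (-0.43) and Idh1 (-0.27). In ERRα-/- liver edgeR called 0 of the 10. Mdh1 was lower in ERRα-/- liver after saline (-0.47) and after insulin (-0.68), the only call of this list between genotypes. Of 12 other elongation and desaturation genes, insulin in WT liver raised 1, Hacd2 (0.48), and lowered 2, Scd2 (-0.41) and Elovl1 (-0.36). Insulin in ERRα-/- liver raised 2, Elovl3 (1.06) and Hacd2 (0.49), and lowered 2, Elovl2 (-0.55) and Hacd3 (-0.47). Between genotypes after saline Hacd3 was higher (0.38) and Scd2 lower (-0.82), and Hacd3 differed in its insulin effect (-0.43). After insulin edgeR called 0 of these 12. In the fits with 1 liver left out, calls for insulin in WT liver were lost in 6 of 8 for Idh1 and for Scd2, in 2 of 8 for Elovl1 and in 1 of 8 for Acss2 (-0.30 without saline replicate 2). In ERRα-/- liver Elovl3 lost its call in 5 of 7 fits and stood at 1.63 without saline replicate 2, and Elovl2 stood at -0.33 without saline replicate 3, still called. The difference of insulin effects for Hacd3 lost its call in 1 of 15 fits (-0.36 without ERRα-/- insulin replicate 2).

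Lpin1, of glycerolipid synthesis, had the largest called rise of these lists in both genotypes. In WT liver 5 of 12 genes tested were called higher, led by Lpin1 (1.86 log2, edgeR adjusted p 0.0303), Gpat3 (0.89), Gpat4 (0.81, edgeR adjusted p 0.00766) and Dgat1 (0.41), and Agpat1 was called lower (-0.54). Of the same genes 4 were called higher in ERRα-/- liver, Lpin1 (2.01, edgeR adjusted p 0.00758), Gpat4 (0.83), Lpin2 (0.71) and Dgat1 (0.51), and Agpat2 lower (-0.30). Lpin1 encodes the phosphatidate phosphatase lipin 1, and Gpat4 a glycerol-3-phosphate acyltransferase. Between genotypes Gpat3 (0.80) and Agpat2 (0.30) were higher after saline. After insulin Lpin1 (0.77) and Lpin2 (0.64) were higher and Gpat3 (-0.42) and Agpat2 (-0.34) lower in ERRα-/- liver. The insulin effect differed between genotypes for Gpat3 (-1.21) and Agpat2 (-0.62). Lpin1, Gpat4 and Lpin2 kept each of these calls in every fit that left out 1 liver. Dgat1 lost its call in 6 of 8 fits for insulin in WT liver, and Agpat2 lost its own in 3 of 7 for insulin in ERRα-/- liver, in 1 of 8 between genotypes after saline and in 5 of 7 after insulin. Gpat3 lost its call after insulin in 2 of 7. Other genes cover 37.4% of the exon bases of Gpat3.

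Of 12 genes that regulate malonyl-CoA or activate fatty acids, insulin in WT liver raised 3, Prkag1 (0.55 log2), Acsl4 (0.51) and Prkag2 (0.44), and edgeR called 0 lower. Insulin in ERRα-/- liver raised 2, Acsl4 (0.80) and Prkag2 (0.50), and lowered 2, Mid1ip1 (-1.22) and Acsl3 (-0.79). Mid1ip1 encodes the relative of Spot 14 that helps the carboxylases to polymerize. Between genotypes Prkaa2 was lower after saline and after insulin (-0.39 in each), Acsl4 was higher after insulin (0.44), and Prkab2 differed in its insulin effect (-0.995). Among genes of sugar uptake and glycolysis, insulin in WT liver raised Khk (0.51) and lowered 3, Slc2a2 (-0.78), Pklr (-0.34) and Pfkl (-0.32). Insulin in ERRα-/- liver lowered 3, Pklr (-1.07), Slc2a2 (-0.75) and Pfkl (-0.32). Pklr was at 50.3, 61.0, 39.2 and 166 CPM in ERRα-/- livers after saline, and without replicate 4, the highest, its fall was 0.42 log2 (p 0.0297), still called. Each of the 3 fits without an ERRα-/- insulin liver lost the call of Pklr. Khk was lower in ERRα-/- than in WT liver after insulin (-0.53) and differed in its insulin effect (-0.71). Without ERRα-/- saline replicate 4 the falls of Mid1ip1 (-0.41, p 0.301) and Acsl3 (-0.50, p 0.0480) were smaller as well. Mid1ip1 lost its call in 4 of 7 fits that left out 1 liver, Acsl3 in 1 of 7 (without insulin replicate 1, p 0.0554) and Pfkl in 2 of 7. For insulin in WT liver Khk, Pklr and Pfkl each lost the call in 3 of 8 such fits. Between genotypes Prkaa2 lost its call in 3 of 8 fits after saline and in 4 of 7 after insulin, Khk in 3 of 7 after insulin, and Prkab2 in 10 of 15 for the difference of insulin effects. Without WT insulin replicate 2 Khk stood at 0.33 for insulin in WT liver (p 0.0700) and at -0.34 between genotypes (p 0.0415). Other genes cover 43.7% of the exon bases of Prkag1, 25.5% of Mid1ip1, 22% of Pklr and 14.5% of Prkag2.

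Markers of other cells moved with insulin in WT liver. The 7 adipocyte markers summed to 16.2 to 53.2 CPM after saline and to 63.0 to 114 CPM after insulin, most of it Cidec, a lipid droplet gene that hepatocytes also express. Cidec lay between 13.0 and 49.9 CPM after saline and between 56.8 and 105 CPM after insulin, a rise of 1.54 log2 (edgeR adjusted p 0.0466). The defining adipocyte markers stayed near 0 in these 15 livers, with Adipoq at most 1.01 CPM, Plin1 at most 0.937 CPM and Lep at most 0.190 CPM. Fabp4 of that list was called higher (0.93 log2). Of 5 stellate cell and fibroblast markers Lrat (-0.88 log2, edgeR adjusted p 0.0339) and Col3a1 (-0.68) were called lower, and of 5 endothelial markers Kdr (-0.60). The other 7 were not called. In each list of 5 only 1 marker was above 0, Dcn (0.21 log2), the most abundant stellate marker, and Pecam1 (0.15). The list medians were -0.54 log2 for the stellate and -0.36 log2 for the endothelial markers. The stellate sum was 161 to 207 CPM after saline and 152 to 192 CPM after insulin, and the endothelial sum 117 to 208 CPM and 96.0 to 152 CPM. Lrat lay between 10.7 and 15.1 CPM after saline and between 5.83 and 9.09 CPM after insulin, with the groups apart. In the 8 fits that left out 1 liver, Lrat and Fabp4 were called each time, and the call was lost in 4 for Col3a1 and in 3 for Kdr. The part of these markers in the values above was not tested.

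How far the genes moved together differed between the experiments. Over the 15 fasted livers the median Pearson r of log2 CPM over the 45 pairs of these genes was 0.0045 (-0.07 to 0.06 with 1 liver left out), with 23 pairs above 0, and after removing group means it was 0.232. Elovl6 followed the mean of the other genes most closely (r 0.587) and Acacb ran most against it (r -0.255). The 5 genes whose log2 CPM was most like the mean of the 10, among 13161 genes, were Fuca2 (r 0.846), Sphk1 (0.834), Aacs (0.799), Rhou (0.760) and Gas6 (0.757). For Srebf1 alone they were Nuak1 (r 0.835), Duox2 (0.822), Parp12 (0.817), Ripk2 (0.808) and Lrrc45 (0.796). These are descriptions over samples that also differ in group, with no test.

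In the livers of the knock-in experiment 9 of the genes, all but Srebf1, went up and down together. Scd1 was at 19696, 14529, 11863 and 19153 CPM in WT livers and at 12672, 18138, 36703 and 581 CPM in ERRα3SA livers. Fasn was at 1114, 935, 788 and 1025 CPM in WT livers and at 894, 1081, 2342 and 328 CPM in ERRα3SA livers. Replicate 3 of the ERRα3SA livers was the highest and replicate 4 the lowest of the 8 for both genes, and the other 2 ERRα3SA livers lay within the WT range.

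Acly too was highest in ERRα3SA replicate 3 and lowest in replicate 4, at 861, 782, 617 and 788 CPM in WT livers and 754, 669.9, 1268 and 266 CPM in ERRα3SA livers. Thrsp was at 367, 323, 181 and 283 CPM in WT livers and at 235, 359, 699 and 67.0 CPM in ERRα3SA livers. Srebf1 itself was at 369.8, 339, 439 and 373 CPM in WT livers and at 419, 275, 344 and 193 CPM in ERRα3SA livers. Srebf1 was therefore the exception, highest in WT replicate 3, the WT liver where the other 9 genes were at their lowest among WT livers. Like them, it was lowest of the 8 in ERRα3SA replicate 4. Over the 10 genes, ERRα3SA replicate 4 held the lowest of the 8 values for 10, where 25.6% of 13339 genes were lowest in it, and replicate 3 held the highest for 9, where 16.3% of genes were highest in it.

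The spread was wide in the ERRα3SA group alone. The median over the 10 genes of the log2 difference from the WT mean was -0.16, 0.18, 1.25 and -1.68 in ERRα3SA replicates 1 to 4, and ran from -0.33 to 0.26 in the WT livers. The 10 genes took 1.53%, 2.12%, 4.14% and 0.182% of counts in the ERRα3SA livers and 1.44% to 2.31% in the WT livers. Without Scd1 the other 9 took 0.290%, 0.322%, 0.624% and 0.121% in the ERRα3SA livers and 0.259% to 0.362% in the WT livers, and Scd1 made up 33.8% of the sum in ERRα3SA replicate 4. The median SD of log2 CPM was 1.19 for the 10 genes against 0.201 for all genes in ERRα3SA livers, and 0.264 against 0.136 in WT livers. When each of these mice last ate is not given, and its part in the spread was not tested. The part of the lower hepatocyte marker sum of ERRα3SA replicate 4 was not tested either.

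**Figure D3:**
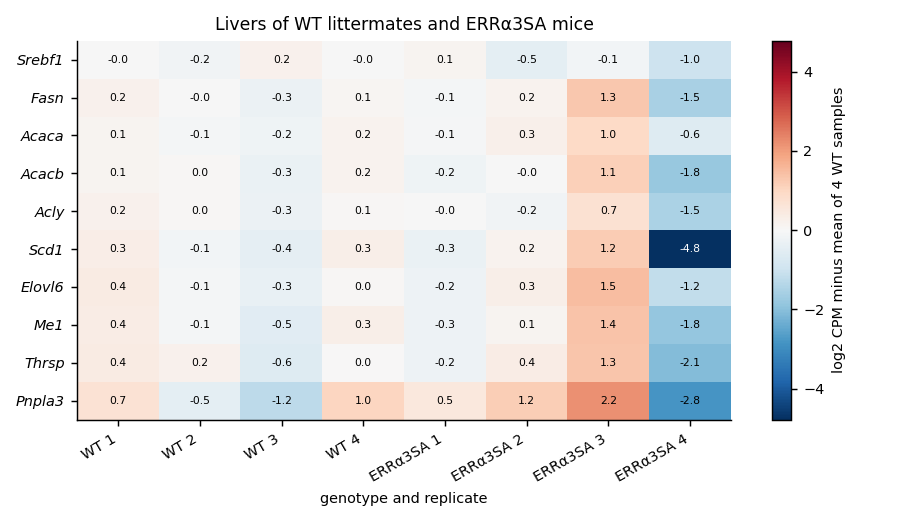
Log2 CPM minus the mean of the 4 WT littermate livers for each gene in the 8 livers of the knock-in experiment. ERRα3SA replicate 3 is above the WT mean by a median of 1.25 over the genes and ERRα3SA replicate 4 is below it, at -1.68.

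Against this spread, the comparison of ERRα3SA with WT liver, which asks whether the changed serines alter these genes, called 0 of 10 higher by edgeR (2.5% of 13339 genes) and 0 lower (2.38%). No gene had an unadjusted p under 0.05 (0 of 10), and DESeq2 called 0. At an adjusted p under 0.05 edgeR passed 0, as for all genes (0%). The median was 0.23 log2, against -0.0004 for all genes, and estimates ran from -0.31 for Srebf1 (SE 0.20, edgeR p 0.167) to 0.81 for Pnpla3 (SE 0.76, edgeR p 0.310). For Scd1 the difference was 0.06 log2 with an SE of 0.80. Replicates 3 and 4 pulled these estimates in opposite directions. Without replicate 4 the estimate was 0.58 for Fasn (p 0.0673), 0.44 for Acaca (p 0.0540) and 0.47 log2 for Scd1, and Pnpla3 was called higher (1.21, p 0.0386). Without replicate 3 the sign turned for 7 of the 10, among them Fasn (-0.33), Scd1 (-0.64) and Elovl6 (-0.29), Pnpla3 stood at 0.10 (p 0.897), and edgeR called 0. Srebf1 stood at -0.14 (p 0.335) without replicate 4 and was called lower without replicate 1 (-0.49, p 0.0274). ERRα3SA replicate 1 held the highest Srebf1 of its group (419 CPM) and the pancreas markers named above, whose part was not tested. Of the 15 regulators Mlxipl was called lower (-0.27 log2; lost without WT replicate 4 and without ERRα3SA replicates 1 or 4, at -0.19, -0.22 and -0.23), and edgeR called 0 genes in the other 5 pathway lists. The cholangiocyte markers Krt19 (-1.14), Krt7 (-1.11) and Epcam (-0.93) were called lower in ERRα3SA liver, each at a mean of at most 2.14 CPM in either group. The other markers of that list of 5, Spp1 (-0.10), the most abundant, and Sox9 (0.38), were not called. The list summed to 40.0 to 47.5 CPM in WT livers and to 30.1 to 57.2 CPM in ERRα3SA livers. Cd79a of the leukocyte markers lay between 0.976 and 1.45 CPM in WT livers and between 0.368 and 0.698 CPM in ERRα3SA livers. Ptprc, the most abundant leukocyte marker, lay at 7.88 to 9.79 and 9.71 to 11.5 CPM. The leukocyte markers summed to 10.4 to 11.8 and 11.1 to 13.6 CPM. The part of these cholangiocyte and leukocyte markers in the values above was not tested.

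Over the 8 livers the median r between pairs of the 10 genes was 0.925, with 45 of 45 pairs above 0, and 0.952 after removing group means. Without ERRα3SA replicates 3 and 4, a choice made after seeing the data, the median r was 0.757, with 36 of 45 pairs above 0. In those 6 livers the pairs above 0 were all 36 pairs without Srebf1, and Srebf1 had a median r of -0.594 with the other genes. Without replicate 4 alone the median r of Srebf1 was -0.423. Acacb followed the mean of the other 9 most closely (r 0.993) and Srebf1 least (r 0.550). With the mean of all 10, genes among the most alike of 12112 were Ctsd (r 0.993), Rnf103 (0.992), Elovl5 (0.990) and Abhd17a (0.990). The mean standardized level of the 10 genes was 1.38 in ERRα3SA replicate 3 and -1.96 in replicate 4, where the other 6 livers lay between -0.28 and 0.38.

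Muscle samples hold fibres and some fat cells, and fat cells express this pathway strongly. Fasn was at 117, 110.1, 122 and 111 CPM in WT muscles and at 74.4, 62.8, 101 and 26.7 CPM in ERRα3SA muscles. Acly was at 37.3, 35.7, 40.0 and 37.7 CPM in WT muscles and at 26.7, 25.6, 35.5 and 26.2 CPM in ERRα3SA muscles. For both genes the 4 ERRα3SA muscles lay below the 4 WT muscles, replicate 3 only just. Srebf1 was at 95.4, 90.2, 98.4 and 70.6 CPM in WT muscles and at 29.9, 69.5, 81.9 and 42.7 CPM in ERRα3SA muscles. Here replicate 3 of the ERRα3SA muscles lay above WT replicate 4, so the groups overlapped. Fasn was called lower in ERRα3SA muscle at -0.79 log2 (SE 0.32, 1.73-fold lower, edgeR p 0.0334). Srebf1 was called lower at -0.66 log2 (SE 0.28, edgeR p 0.0436) and Acly at -0.40 log2 (SE 0.13, 1.32-fold lower, edgeR p 0.0121, adjusted p 0.966).

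Thus edgeR called 0 of 10 higher (2.78% of 14081 genes) and 3 lower (1.75%) in ERRα3SA muscle. At an adjusted p under 0.05 edgeR passed 0, as for all genes (0%), 3 had an unadjusted p under 0.05, and DESeq2 called 3. The median was -0.48 log2, against 0.02 for all genes. The other 7 genes ran from -0.53 (Pnpla3, SE 0.45; -0.24 without ERRα3SA replicate 1) to 0.03 (Acacb, SE 0.12). Scd1 was at 513, 509.6, 348 and 371 CPM in WT muscles and at 535, 286, 361 and 45.9 CPM in ERRα3SA muscles. The low value of Scd1 in ERRα3SA replicate 4 stood alone, and the difference was -0.50 log2 (SE 0.55, edgeR p 0.378), or -0.14 (p 0.570) without it and -0.91 (p 0.117) without replicate 1. That replicate held the lowest of the 8 values for 6 of the 10 genes, where 20.9% of all genes were lowest in it. The part of its high fibroblast, macrophage and leukocyte markers was not tested.

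The muscle calls depended on which muscle was left out. Without ERRα3SA replicate 1, the library with high mitochondrial counts, 6 genes were called lower: Fasn (-0.85), Elovl6 (-0.63), Acaca (-0.51), Srebf1 (-0.45), Me1 (-0.41) and Acly (-0.37), where 7.1% of 14363 genes were called lower and 10.3% higher. Without replicate 4, the library with high fibroblast markers, Fasn (-0.53, p 0.0106) and Acly (-0.36, p 0.0283) were called and Srebf1 was not (p 0.109), while Acaca (-0.05), Me1 (-0.03), Elovl6 (-0.46) and Thrsp (-0.30) were not called either. Without ERRα3SA replicate 2 Fasn was not called (-0.77, p 0.0681), and without replicate 3 Thrsp was called as well (-0.65, p 0.0287). Leaving out WT muscles 1, 2 or 3 lost both Fasn (p 0.0626, 0.0545 and 0.0668) and Srebf1 (p 0.0898, 0.0791 and 0.0949), and leaving out WT muscle 4 lost Fasn (p 0.0546). Acly was called in each of these 8 fits. With the 4 groups of both tissues fitted together, Acly (-0.43, p 0.176) and Fasn (-0.82, p 0.0774) were not called and Srebf1 was.

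**Figure D4:**
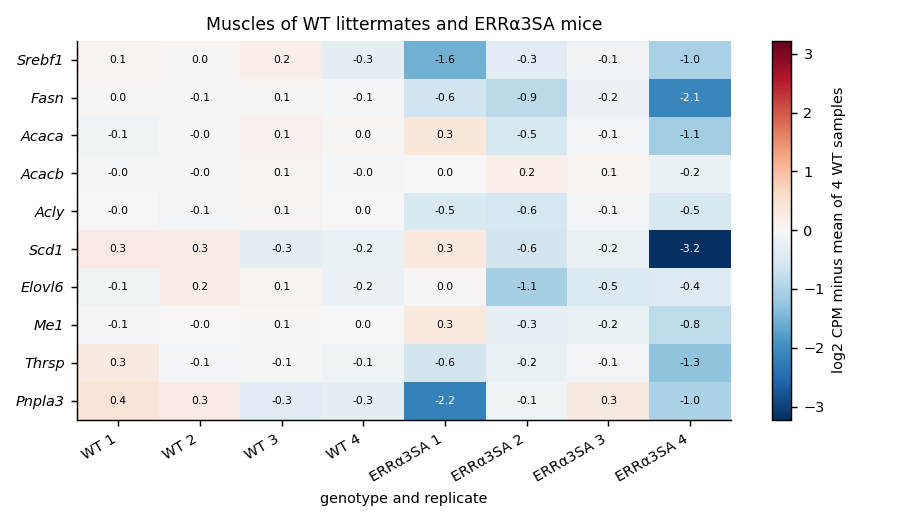
Log2 CPM minus the mean of the 4 WT littermate muscles for each gene in the 8 muscles. ERRα3SA replicate 4 is lowest for 6 of the 10 genes, and the median over the genes is -0.24, -0.42, -0.10 and -1.03 in ERRα3SA replicates 1 to 4.

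Among the other pathway genes in ERRα3SA muscle, Slc25a1, the mitochondrial citrate carrier, was called lower (-0.53 log2), as were Elovl7 (-1.01) and Scd2 (-0.84, edgeR p 0.000250). Prkab1 was called higher (0.31), a call lost in 7 of the 8 fits that left out 1 muscle. Elovl7 lost its call in 6 of them (-0.57 without WT muscle 1) and Slc25a1 in 1 (-0.45 without WT muscle 3), and Scd2 was called in each. EdgeR called 0 of the regulators, glycerolipid and sugar genes. The 7 adipocyte markers summed to 164 to 269 CPM in WT muscles and to 186 to 259 CPM in ERRα3SA muscles, led by Fabp4 at 93.6 to 169 CPM. Of these markers Retn was called lower (-1.22, edgeR p 0.000434), 0 were called higher by edgeR, and their part in the lower Fasn, Srebf1 and Acly was not tested.

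The difference of the ERRα3SA effects between muscle and liver was also tested, with the tissues fitted as unpaired. By edgeR 0 of 10 genes were called higher (3.16% of 15688 genes) and 0 lower (2.41%), 0 had an unadjusted p under 0.05, and DESeq2 called 0. At an adjusted p under 0.05 edgeR passed 0, as for all genes (0%). The median was -0.55 log2, against 0.003 for all genes, and all 10 estimates were below 0, from -0.10 for Acacb (SE 0.52) to -1.36 for Pnpla3 (SE 0.97). This too rested on 2 livers. Without ERRα3SA liver replicate 4, 5 genes were called lower, namely Pnpla3 (-1.74, p 0.0365), Fasn (-1.38, p 0.0121), Elovl6 (-1.13, p 0.0264), Thrsp (-1.08, p 0.0328) and Acly (-0.64, p 0.0316), where 2.09% of 16005 genes were called lower. Without ERRα3SA liver replicate 3 edgeR called 0, and 4 estimates were above 0, Acacb (0.54), Me1 (0.31), Scd1 (0.15) and Acly (0.05), while Pnpla3 was at -0.61, Fasn at -0.45 and Elovl6 at -0.16. Without ERRα3SA muscle replicate 3 Fasn was called (-1.37, p 0.0435). The fewer calls in liver than in muscle therefore do not show that the tissues differ. Of the other pathway lists 1 gene was called, Scd2 (-0.69 log2; -0.45 without ERRα3SA liver replicate 3, still called).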

How the data were processed

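Counts per gene, as deposited by the authors after alignment of read pairs to mm10 with STAR, were used here with no further correction. Ensembl identifiers were given symbols from GENCODE (97.8% of 35275 and 99.8% of 54532 identifiers). Each comparison was fitted over all genes with edgeR 4.0.16 (TMM scaling, its filter on low counts, quasi-likelihood test, Benjamini-Hochberg adjustment) in R 4.3.3, using only the groups compared, or all 4 groups of an experiment for a difference between effects. Calls needed an unadjusted p below 0.05 together with a difference of 1.2-fold or more. Log2 CPM used a prior count of 2. The steps were tested on simulated data. Alternatives were DESeq2 1.42.0, its style of size factors, no filter, all 4 groups together, adjusted p, a replicate block and each sample left out. All 10 genes are described in every comparison. From each list the called genes are named, at most 4 per direction and comparison with the largest fold change, and likeness is named for the 5 genes with the highest Pearson r. The genes and lists were chosen with earlier results of these data known. Results that need items withheld for evaluation are not reported here.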

Additional observations from a re-analysis of the deposited data

Results flagged for a closer look

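In a group of 4 samples, a value far from the other 3 was looked for by the gap to its nearest neighbour over the range of the group (Dixon's criterion). It was met in 7 of 70 groups of values, each time by the highest sample, and chance alone flags about 1 in 20. These were Srebf1 at 42.9 CPM in ERRα-/- liver after saline (replicate 4), Fasn at 151 CPM in WT liver after insulin (replicate 1) and Acaca at 95.9 CPM in WT liver after saline (replicate 2). Acacb was at 141 CPM in ERRα-/- liver after saline (replicate 1) and at 425 CPM in WT littermate muscle (replicate 3). Acly was at 35.5 CPM in ERRα3SA muscle (replicate 3) and Thrsp at 22.3 CPM in WT littermate muscle (replicate 1). The 7 values came from 7 different libraries.

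The effect of insulin differed between the genotypes by a test of the difference itself for 2 genes, Scd1 at -1.15 log2 and Elovl6 at -0.56 log2, neither of which passed after adjustment (edgeR adjusted p 0.557 and 0.543). Over all genes 4.04% were called higher and 4.75% lower in this comparison. DESeq2 did not call Scd1 (p 0.0675), and with 1 liver left out the call was lost in 9 of 15 fits for Scd1 and in 5 of 15 for Elovl6.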

How the results depend on the processing

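Over 126 alternative fits, 77 of them leaving out 1 sample, 1053 of 1204 results for single genes kept both direction and call. In 99 the call changed, and in 52 the sign turned, none of them called in either setting.

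At an adjusted p under 0.05 the number called became 0 in place of 4 for insulin in WT liver, 8 for insulin in ERRα-/- liver, 3 for the genotypes after insulin, 2 for the difference of insulin effects and 3 for ERRα3SA muscle. For the genotypes after saline it was 1 with DESeq2, 2 with no filter on low counts and 1 with the replicate block, in place of 0. The shares of all genes called under these settings are not given here, so these counts are not set against a background. The difference of insulin effects gave 1 with DESeq2 in place of 2, and ERRα3SA muscle gave 1 with 4 groups fitted together in place of 3. In ERRα3SA muscle Thrsp was called under 2 of the 6 alternatives that kept all or most samples, 1 of them the replicate block. The causes were not tested.

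Replicate numbers were not taken to pair samples: correlations between same-numbered samples ran from -0.22 to 0.33. Between liver and muscle, the same-numbered sample was the best match for 3 of 4 in WT littermates and for 3 of 4 in ERRα3SA mice. It was also the best match for 3 of 4 between WT and ERRα-/- livers after saline, and for 0 to 2 in the other pairs of groups. Whether liver and muscle samples of the same number came from 1 mouse was not tested. With the replicate block the signs turned for Me1 between genotypes after insulin (0.0055), in ERRα3SA liver for Fasn (-0.046), Acacb (-0.21), Scd1 (-0.56), Me1 (-0.16) and Thrsp (-0.17), and for Acacb in the difference between tissues (0.071). With the block the difference of insulin effects was called for Srebf1 (-0.75, p 0.0348) and Thrsp (-1.04, p 0.0177) and not for Scd1 (-0.73, p 0.177). Calls were also gained with it for Srebf1 between genotypes after saline (-0.46, p 0.0217), for Acacb after insulin (0.48, p 0.0297) and for Thrsp in ERRα3SA muscle (-0.55, p 0.0483). With the 2 WT livers that carried pancreas markers left out, a choice made after seeing the data, signs turned for Srebf1 (0.36) and Acacb (-0.10) with insulin in WT liver, for Srebf1 between genotypes after saline (0.022) and for Acaca in the difference of insulin effects (0.017).

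With 1 sample left out, the number called ran from 5 to 8 for insulin in ERRα-/- liver, 0 to 2 for the genotypes after saline, 0 to 2 for the difference of insulin effects, 0 to 1 for ERRα3SA liver, 1 to 6 for ERRα3SA muscle and 0 to 5 for the difference between tissues. Where a sign turned, the log2 values ran as follows. With insulin in WT liver Srebf1 ran from -0.45 to 0.044, Scd1 from -0.094 to 0.42, Elovl6 from -0.20 to 0.0058 and Me1 from -0.082 to 0.27. Between genotypes after saline Fasn ran from -0.22 to 0.34, Acaca from -0.010 to 0.33, Acacb from -0.38 to 0.087, Acly from -0.022 to 0.34, Me1 from -0.0077 to 0.34 and Thrsp from -0.46 to 0.087. After insulin Fasn ran from -0.41 to 0.12 and Me1 from -0.22 to 0.036. For the difference of insulin effects Fasn ran from -0.55 to 0.073, Acaca from -0.21 to 0.13, Acly from -0.11 to 0.26 and Pnpla3 from -1.16 to 0.77. In ERRα3SA liver the lowest values came without replicate 3 and the highest without replicate 4: Fasn -0.33 to 0.58, Acaca -0.10 to 0.44, Acacb -0.49 to 0.42, Acly -0.44 to 0.24, Scd1 -0.64 to 0.47, Elovl6 -0.29 to 0.66, Me1 -0.48 to 0.55 and Thrsp -0.39 to 0.58. In ERRα3SA muscle Acacb ran from -0.023 to 0.10. In the difference between tissues Acacb ran from -0.40 to 0.54, Acly from -0.64 to 0.053, Scd1 from -0.996 to 0.15 and Me1 from -0.75 to 0.31.

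Pnpla3 had 0 to 22 counts per fasted liver.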
